A study of Mus musculus with 4 samples.

Results

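The genes described here are the Id family (Id1, Id2, Id3 and Id4), the ligand Bmp4, and the BMP-Smad response genes Smad6, Smad9, Bambi, Msx1 and Msx2. They were chosen by symbol, Bmp4 as a ligand and the others as genes known to respond to BMP signalling. Together they are 10 of the 23235 gene symbols in the data. RNA-seq was performed on HG165, an androgenetic mouse haploid embryonic stem cell (haESC) line, in which the single genome is paternal. HG165 is 1 cell line, derived from a young C57BL/6 mouse. One group received the solvent DMSO and the other received RDF, a mixture of Repsox (inhibitor of TGF-β pathways), DMH1 (inhibitor of the BMP4 pathway) and Forskolin (activator of adenylate cyclase), with 2 samples in each group. Both groups are labelled as haESCs, which the study kept in general in medium with serum and leukemia inhibitory factor. Its methods place most experiments without feeder cells and do not list RNA-seq among the exceptions. The doses and length of treatment and any sorting for haploid cells are not stated for these samples. The 3 chemicals were given together, so that their separate effects cannot be told apart.

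BMP ligands bind a complex of type I and type II receptors, which phosphorylates Smad1, Smad5 or Smad9. These Smads enter the nucleus with Smad4 and activate transcription, and the Id genes are among the best known targets. Id proteins have a helix-loop-helix domain but no DNA-binding region, and by pairing with E proteins such as Tcf3 they keep basic helix-loop-helix (bHLH) factors off DNA. In mouse embryonic stem cells, Id proteins induced by BMP are known for restraining neural differentiation. The comparison asks whether transcripts known to be induced by BMP were lower in cells that received an inhibitor of this pathway.

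Id3 was the gene of this set with the largest change, and it was higher in RDF-treated cells. Of the 9 genes that were tested, 3 rose (Id3, Id2 and the ligand gene Bmp4) and 0 fell at an adjusted p under 0.05 from limma. Among all 11733 genes tested, 13.3% rose and 8.28% fell by the same rule, 21.6% in all. At an unadjusted p under 0.05, 4 of the 9 genes were higher and 0 lower, against 22.5% and 15.5% of all genes tested. The median log2 fold change of the 9 genes was 0.17, and that of all genes tested was 0.03. Values are FPKM, the fragments of a gene scaled to transcript length and to the number of mapped fragments, and were tested as log2(FPKM + 1) in genes whose mean reached 1 FPKM. Of the 10 genes, Smad9 did not pass this filter. The log2 fold change is the mean of the RDF samples minus the mean of the DMSO samples on that scale. The scale understates the change of genes with low FPKM. In bulk RNA, a change in the number of cells that express a gene and a change in the RNA of each cell cannot be told apart.

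**Figure D1:**
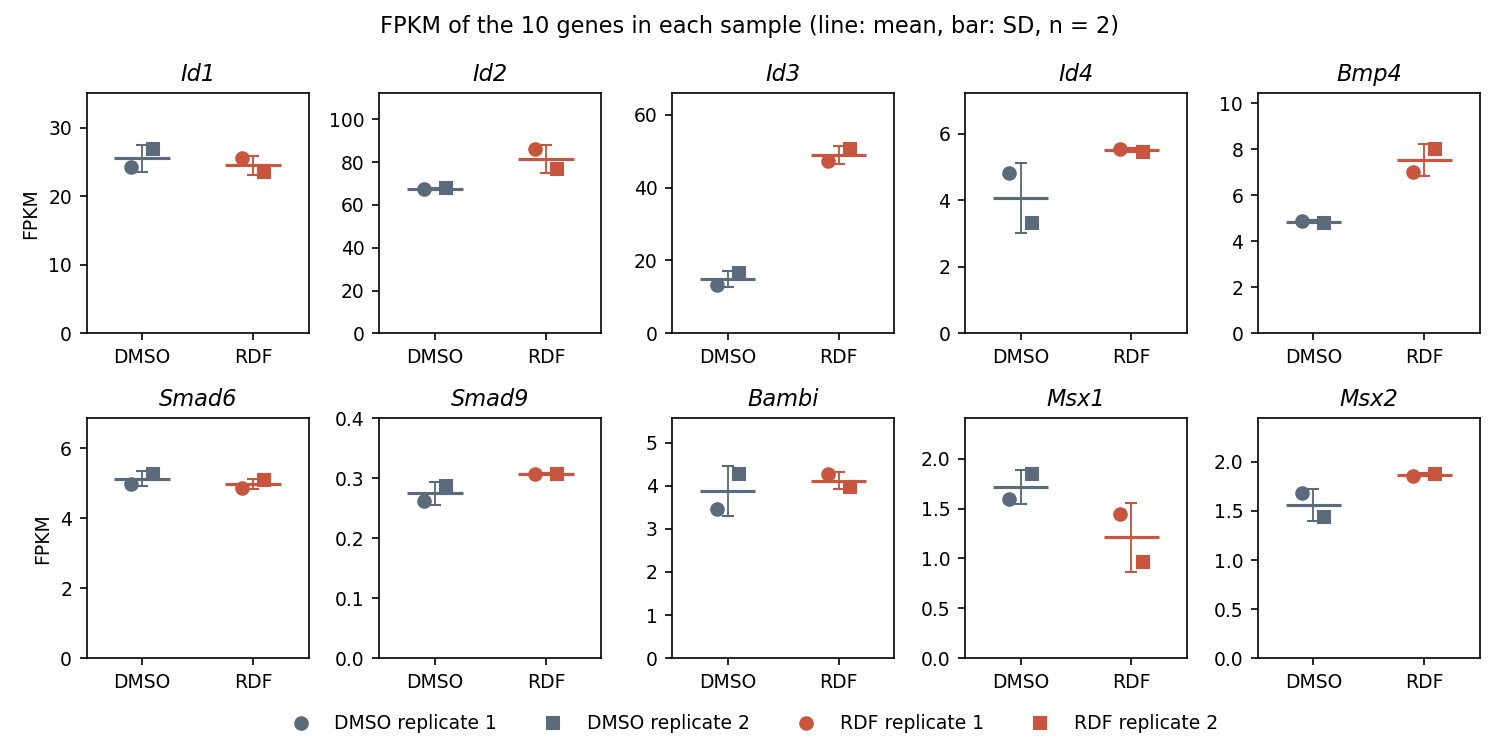
FPKM of each of the 10 genes in the DMSO and RDF samples, with a point for each sample, a line for the mean and a bar for the SD (n = 2). Id3 lies at 13.3 and 16.5 FPKM in DMSO and at 47.2 and 50.6 FPKM in RDF, whereas the Id1, Smad6 and Bambi samples overlap between the groups.

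Sequencing depth was estimated from the steps between low FPKM values, at 9540000 to 12400000 fragments per sample. The summed FPKM was between 718064 and 764461. The pluripotency markers Pou5f1, Nanog, Sox2, Zfp42, Esrrb, Klf4, Tdgf1 and Utf1 were at least 25.8 FPKM in every sample. However, 6 of these 8 differed between the groups, where 21.6% of all genes tested did. The sum of the 8 was 2367 and 2257 FPKM in DMSO and 1860 and 1780 FPKM in RDF. Of these sums, Pou5f1 took 1290 and 1220 FPKM in DMSO and 1030 and 939 FPKM in RDF. The mean was higher in RDF for 4 of the 8. Pou5f1, Tdgf1 and Utf1 fell (log2 fold changes of -0.35, -0.70 and -0.80, adjusted p = 0.0261, 0.00280 and 0.00192 from limma), and Zfp42, Klf4 and Sox2 rose (0.85, 0.55 and 0.26, adjusted p = 0.000836, 0.00320 and 0.0187). The call of Pou5f1 was lost without DMSO replicate 1, RDF replicate 1 or RDF replicate 2 (adjusted p = 0.0535, 0.0876 and 0.171), and that of Sox2 without DMSO replicate 2, RDF replicate 1 or RDF replicate 2 (adjusted p = 0.0567, 0.109 and 0.0942). The share of haploid cells in these samples was not measured, and its part in the results was not tested.

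The Id genes were ordered by level as Id2, Id3, Id1 and Id4 over the 4 samples, but the place of Id3 depended on the condition. In DMSO, both Id3 values were below both Id1 values, and in RDF both were above them. Id2 was the highest of the family in every sample. Id4 was the lowest in every sample.

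Id3 (ENSMUSG00000007872, on chromosome 4 from 135699412 to 135701670 of mouse build NCBIM37, plus strand) stood at 13.3 and 16.5 FPKM with DMSO and at 47.2 and 50.6 FPKM with RDF. Both RDF values were far above both DMSO values, and the gap between the groups was larger than the spread within either. The group means of 14.9 ± 2.22 FPKM (DMSO) and 48.9 ± 2.41 FPKM (RDF) had a ratio of 3.28 (SD, n = 2 each). Its log2 fold change was 1.66 (standard error 0.103, 95% interval 1.41 to 1.91), with an adjusted p of 0.000823 from limma. Id3 was the only one of the 10 genes that changed more than 2-fold, as 0.631% of all genes tested did upwards and 0.776% downwards, and it had rank 17 among the 11733 changes ordered from the highest. The estimated depth puts about 163 and 237 fragments behind the DMSO values and about 748 and 731 behind the RDF values. With any 1 sample left out and under the other settings tried, Id3 stayed between 1.51 and 1.80 with an adjusted p of at most 0.027. A group from which a sample was left out had 1 sample, assumed to vary like the other group, so such p-values rest on the spread of 1 pair of samples and on the other genes, here and for the genes that follow.

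Id1 (chromosome 2 from 152561987 to 152563146, plus strand) is the Id gene most often read as a measure of BMP-Smad activity. It stood at 24.2 and 26.9 FPKM with DMSO and at 25.5 and 23.6 FPKM with RDF. The 2 groups overlapped, with the lowest value of the 4 in RDF replicate 2. The log2 fold change was -0.05 (standard error 0.0768), and its 95% interval ran from -0.24 to 0.13 (adjusted p = 0.639 from limma). Its sign changed when either DMSO replicate 2 (0.02) or RDF replicate 2 (0.00074) was left out.

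Id2 (chromosome 12 from 25778666 to 25780957, minus strand) rose slightly, from 67.3 and 67.9 FPKM with DMSO to 86.2 and 77.0 FPKM with RDF. The DMSO values lay close together and below both RDF values. The log2 fold change was 0.27 (standard error 0.0682, 95% interval 0.10 to 0.43, adjusted p = 0.0399 from limma). This call was near the threshold and was lost in 7 of 12 alternatives, among them leaving out any 1 sample, with adjusted p of 0.0901 and 0.0833 without DMSO replicates 1 and 2 and of 0.161 and 0.0672 without RDF replicates 1 and 2. It was also lost with median-ratio scaling of the samples (adjusted p = 0.0641).

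Id4 (chromosome 13 from 48356796 to 48359405, plus strand) was far less abundant, at 4.81 and 3.33 FPKM with DMSO and 5.55 and 5.47 FPKM with RDF. The RDF samples nearly coincided, and the DMSO samples differed more from each other than DMSO replicate 1 differed from RDF. The log2 fold change of Id4 was 0.38 (standard error 0.147, 95% interval 0.02 to 0.74) and did not pass the threshold (adjusted p = 0.118 from limma). Without DMSO replicate 1 it was 0.59, with an adjusted p of 0.0216. In the annotation, A330033J07Rik overlaps Id4 on the opposite strand. The strand setting of the authors' quantification is not stated, so fragments of such partners could have been counted together.

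The family as a whole summed to 109.6 and 114.6 FPKM with DMSO and to 164.5 and 156.7 FPKM with RDF, a ratio of means of 1.43. Id3 made up 12.2% and 14.4% of this sum in DMSO and 28.7% and 32.3% in RDF. The share of Id1 was 22.1% and 23.5% in DMSO and 15.5% and 15.0% in RDF. Without Id3, the family summed on average to 97.2 FPKM (DMSO) and 111.7 FPKM (RDF), a ratio of 1.15, so most of the difference in the sum of 48.5 FPKM was the 34.0 FPKM of Id3. With 2 samples against 2, an exact permutation test cannot give a two-sided p below 0.333, which is the value for this sum.

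**Figure D2:**
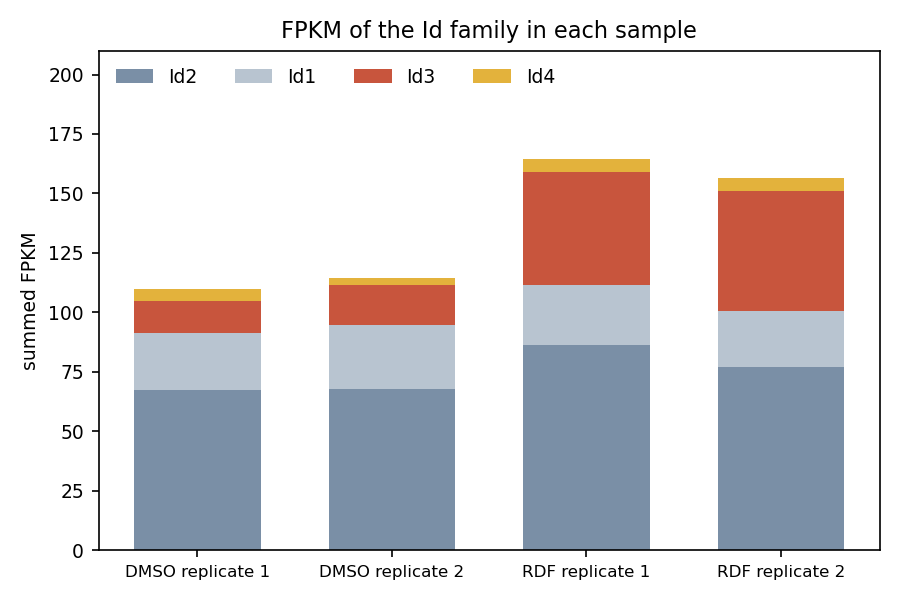
Stacked bars of the FPKM of Id2, Id1, Id3 and Id4 in each of the 4 samples. The bars reach 109.6 and 114.6 FPKM in DMSO and 164.5 and 156.7 FPKM in RDF, and the Id3 segment is the one that differs most between the groups.

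Promoter sequences of the Id family are given here, because its members share a family and a known upstream signal but differed in how much they changed. Of the 10 genes, 8 matched the RefSeq promoter table by symbol (build GRCm38.p6), and Id1 and Bambi were the others. The 250 bases before the start of each gene are given 5′ to 3′ on the strand of the gene. Capitals mark 3 motifs on either strand. GGCGCC is a GC-rich element that BMP Smads are known to bind. CAGAC, which reads as GTCTG on the opposite strand, is the Smad box and always holds the shorter Smad motif GTCT on 1 of its strands. The half-site of the cAMP response element, TGACG, reads as CGTCA on the opposite strand and was added after the expression values were seen. In Id3, the first Smad box shares its first letters with the cAMP half-site, and both are in 1 run of capitals.
Id3, chr4:136143572-136143821, plus strand: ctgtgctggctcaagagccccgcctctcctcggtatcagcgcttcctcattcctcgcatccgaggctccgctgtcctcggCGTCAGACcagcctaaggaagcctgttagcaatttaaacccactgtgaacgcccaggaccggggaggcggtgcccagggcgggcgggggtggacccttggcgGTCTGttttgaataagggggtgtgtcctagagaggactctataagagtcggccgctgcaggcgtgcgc
Id2, chr12:25096093-25096342, minus strand: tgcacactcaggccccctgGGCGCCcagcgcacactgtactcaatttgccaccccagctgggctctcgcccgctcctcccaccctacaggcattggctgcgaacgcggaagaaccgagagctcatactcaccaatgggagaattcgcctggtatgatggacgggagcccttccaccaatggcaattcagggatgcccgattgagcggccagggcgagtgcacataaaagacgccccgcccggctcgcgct
Id4, chr13:48260866-48261115, plus strand: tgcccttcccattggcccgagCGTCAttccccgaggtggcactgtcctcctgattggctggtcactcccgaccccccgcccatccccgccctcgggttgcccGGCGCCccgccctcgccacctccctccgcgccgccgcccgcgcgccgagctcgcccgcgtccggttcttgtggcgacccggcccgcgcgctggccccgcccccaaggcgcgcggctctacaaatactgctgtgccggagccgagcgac

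In the Id3 promoter, the Smad box lay 167 to 163 bases before the start and again, on the opposite strand, 68 to 64 bases before it. Id3 was the only one of the 8 promoters with a Smad box, which 42.2% of all 32851 promoters in the table hold in the same window. GGCGCC was found in the promoters of Id2, Id4 and Smad9 and in 9.59% of all promoters. The printed promoters were richer in G and C (62.8% in Id3, 62.8% in Id2 and 75.6% in Id4) than the median of all promoters (52.4%). The shares were not adjusted for this. The cAMP half-site was found in Id3, Id4 and Msx2, and in 17.8% of all promoters. The short motif GTCT was present, on either strand, in 6 of the 8 and in 82.9% of all promoters. The composite of both kinds of element, GGCGNCNNNNNGTCT, was in 0 of the 8 and in 0.192% of all promoters. These matches describe letters within 250 bases and are not measurements of binding.

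Bmp4 (chromosome 14 from 47003195 to 47010344, minus strand) encodes the ligand whose pathway DMH1 is used to inhibit. It stood at 4.89 and 4.82 FPKM with DMSO and at 7.03 and 8.02 FPKM with RDF. The DMSO samples nearly coincided and both RDF samples were above them. The ratio of the means was 1.55, and the log2 fold change was 0.54 (standard error 0.0917, 95% interval 0.32 to 0.76, adjusted p = 0.0122 from limma). Without RDF replicate 2 the log2 fold change was 0.45 and no longer passed the threshold (adjusted p = 0.0828). Gm15217, which overlaps Bmp4 on the opposite strand, had at most 0.174 FPKM in any sample. Gm15222 also overlaps Bmp4 on the opposite strand and has no values in the data, so its part could not be checked.

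Smad6 and Bambi, inhibitors that BMP signalling is known to induce in its own feedback, did not differ beyond their spread. Smad6 (chromosome 9 from 63800953 to 63869866, minus strand) binds activated BMP receptors and stood at 4.98 and 5.27 FPKM with DMSO and at 4.87 and 5.08 FPKM with RDF. The values of the groups were interleaved, with a log2 fold change of -0.04 (standard error 0.0853, 95% interval -0.24 to 0.17, adjusted p = 0.784 from limma). Bambi, a receptor-like protein without a kinase domain, stood at 3.46 and 4.28 FPKM with DMSO and at 4.26 and 3.97 FPKM with RDF. Both RDF values lay between the DMSO values. Its log2 fold change was 0.08 (standard error 0.113, 95% interval -0.20 to 0.35, adjusted p = 0.658 from limma) and became -0.05 without DMSO replicate 1. The pseudogene Bambi-ps1, which could share fragments with Bambi, had between 0.485 and 0.789 FPKM.

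Smad9, a receptor-activated Smad of the BMP branch, was the lowest of the 10 genes, at 0.262 and 0.288 FPKM with DMSO and 0.307 and 0.308 FPKM with RDF. About 13 to 20 fragments lay behind each value, and its difference was not tested. Msx1 and Msx2, homeobox transcription factors known as BMP targets in embryonic tissues, were also low, and their means moved in opposite directions. Msx1 stood at 1.60 and 1.85 FPKM with DMSO and at 1.45 and 0.960 FPKM with RDF, both below the DMSO values. The log2 fold change of Msx1 was -0.31 (standard error 0.145, 95% interval -0.67 to 0.04, adjusted p = 0.172 from limma). Msx2 stood at 1.68 and 1.44 FPKM with DMSO and at 1.86 and 1.88 FPKM with RDF. The log2 fold change of Msx2 was 0.17 (standard error 0.110, 95% interval -0.10 to 0.43, adjusted p = 0.312 from limma). About 21 to 57 fragments lay behind each value of Msx1 and Msx2.

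**Figure D3:**
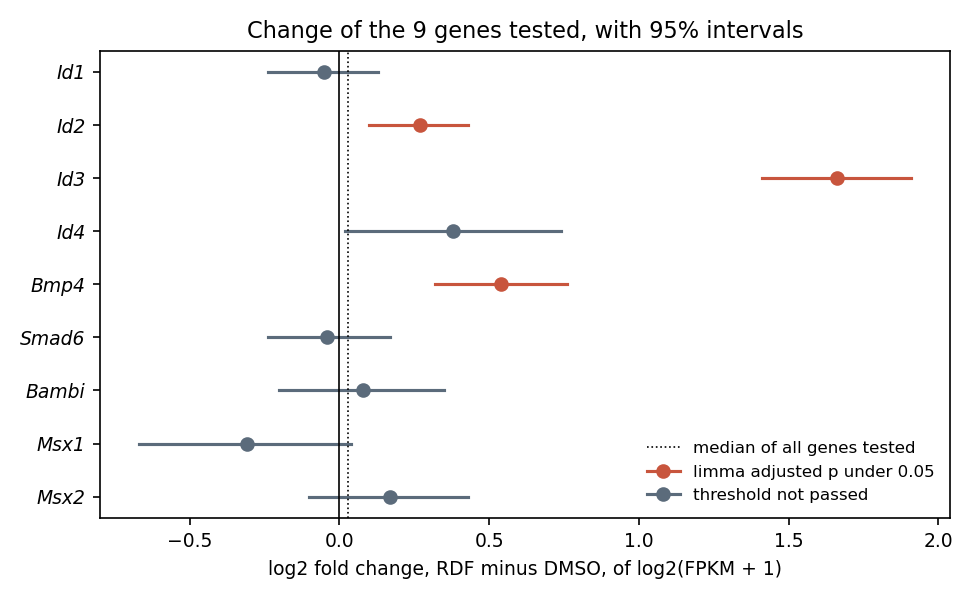
Log2 fold change (RDF minus DMSO, on log2(FPKM + 1)) of the 9 genes tested, with points for the estimate and lines for the 95% interval from limma. Id3 stands at 1.66, Bmp4 at 0.54 and Id2 at 0.27, and the intervals of Id1, Smad6, Bambi, Msx1 and Msx2 include 0.

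Of the 9 genes tested, 5 had both RDF values above both DMSO values, 1 had both below and 3 overlapped. Among all genes tested, 37.1% lay above and 28.5% below in this way, 65.5% in all. The 3 genes outside the set whose centred profile over the 4 samples was nearest to that of Id3 were Egr2, S100a8 and Mt4. Their Euclidean distances were 0.195, 0.265 and 0.302 on the scale of log2(FPKM + 1), and they hold for this pseudocount only. With a pseudocount of 0.1, the log2 fold changes were 1.71 for Id3, 2.3 for Egr2, 4.54 for S100a8 and 1.68 for Mt4. Egr2, an immediate early transcription factor, had 0.937 and 0.984 FPKM in DMSO and 5.13 and 5.08 FPKM in RDF. Both DMSO values of Egr2 were below 1 FPKM, so it passed the filter only through the RDF samples. Mt4, a metallothionein, had 4.13 and 3.94 FPKM in DMSO and 12.1 and 14.3 FPKM in RDF. S100a8 was listed at 0 in both DMSO samples and at 2.39 and 2.08 FPKM in RDF. About 12 and 9 fragments lay behind its RDF values, and it passed the filter through the RDF samples alone. With 4 samples, this likeness describes these samples only.

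The other genes of the pathway were read from the same fit, in lists written from textbook roles. The shares of all genes tested that rose (13.3%) and fell (8.28%) are the background of each count. Among 15 BMP ligands, 5 were tested, of which 2 rose and 1 fell. Bmp7 rose together with Bmp4, from 5.24 and 4.45 FPKM to 8.57 and 8.21 FPKM (log2 fold change 0.69, adjusted p = 0.00718 from limma), and without RDF replicates 1 and 2 the change was 0.66 and 0.72 with an adjusted p of 0.0647 and 0.0606. Bmp8b fell from 3.74 and 3.39 FPKM to 2.55 and 2.00 FPKM (log2 fold change -0.48, adjusted p = 0.0372), a call lost when any 1 sample was left out, with adjusted p of 0.108, 0.0621, 0.0715 and 0.159 without DMSO replicates 1 and 2 and RDF replicates 1 and 2. Its paralog Bmp8a lies among the genes not tested, and how fragments that match both were divided is not stated. Gdf3, the ligand of the list with the highest level, was between 22.1 and 23.9 FPKM in all samples (log2 fold change 0.01, 95% interval -0.15 to 0.16).

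Of 10 receptors and co-receptors, 8 were tested and 2 rose, Bmpr1a and Rgmb. Bmpr1a, a type I BMP receptor, averaged 10.6 FPKM in DMSO and 15.6 FPKM in RDF (log2 fold change 0.53, adjusted p = 0.00767 from limma). Rgmb, a BMP co-receptor, had 4.71 and 3.53 FPKM in DMSO and 6.74 and 6.70 FPKM in RDF (log2 fold change 0.60, adjusted p = 0.0220). Without RDF replicates 1 and 2, the log2 fold change of Bmpr1a was 0.53 both times (adjusted p = 0.0627 and 0.0676) and that of Rgmb was 0.60 and 0.61 (adjusted p = 0.117 and 0.120), so the calls were lost with hardly any change in size. The type II receptor Acvr2b and the type I receptor Acvrl1 did not pass the threshold, with log2 fold changes of 0.15 for both and 95% intervals of -0.11 to 0.41 and -0.12 to 0.43.

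Smad7 was the gene of the 6 BMP Smads that moved most. This inhibitory Smad, known to be induced by both TGF-β and BMP signals, stood at 9.82 and 9.38 FPKM with DMSO and at 3.62 and 3.60 FPKM with RDF. The groups were far apart and each was tight, with a log2 fold change of -1.20 (SE 0.0802), and the adjusted p from limma was 0.000957. Smad6, the other inhibitory Smad, thus kept overlapping values where those of Smad7 separated. The shared partner Smad4, at 23.8 to 26.0 FPKM, had a log2 fold change of 0.05 (95% interval -0.11 to 0.20), and Smad5 had one of 0.16 (95% interval -0.06 to 0.38).

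Among 16 extracellular antagonists, 7 were tested, of which 1 rose and 2 fell. Grem1, which encodes the BMP antagonist gremlin, rose from 3.02 and 2.95 FPKM to 4.40 and 5.46 FPKM (log2 fold change 0.57, adjusted p = 0.0202 from limma), with adjusted p of 0.0512 without DMSO replicate 2 and 0.105 without RDF replicate 2. The follistatin-like genes Fstl3 (log2 fold change -0.61, adjusted p = 0.0147) and Fstl1 (log2 fold change -0.46, adjusted p = 0.00491) fell, and without RDF replicate 1 the adjusted p of Fstl3 was 0.0712. Twsg1, between 30.6 and 35.5 FPKM, did not pass the threshold (adjusted p = 0.0694). Of 14 intracellular regulators, 12 were tested, of which 5 rose and 2 fell, where 13.3% and 8.28% of all genes tested did. Skil, a co-repressor of Smads, fell from 16.6 and 17.2 FPKM to 8.63 and 8.05 FPKM (log2 fold change -0.94, adjusted p = 0.00142). Tob1 and Tob2, antiproliferative proteins that bind Smads, rose by 0.71 and 0.54 on the log2 scale (adjusted p = 0.00310 and 0.00497), and the adjusted p of Tob2 was 0.0549 without RDF replicate 2. Lemd3, a nuclear envelope protein that binds Smads, rose by 0.45 (adjusted p = 0.0192) and the phosphatase gene Ctdsp2 by 0.37 (adjusted p = 0.0125). Without RDF replicates 1 and 2 their adjusted p was 0.101 and 0.105 for Lemd3 and 0.0663 and 0.0938 for Ctdsp2, and that of Lemd3 was 0.0681 without DMSO replicate 2.

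**Figure D4:**
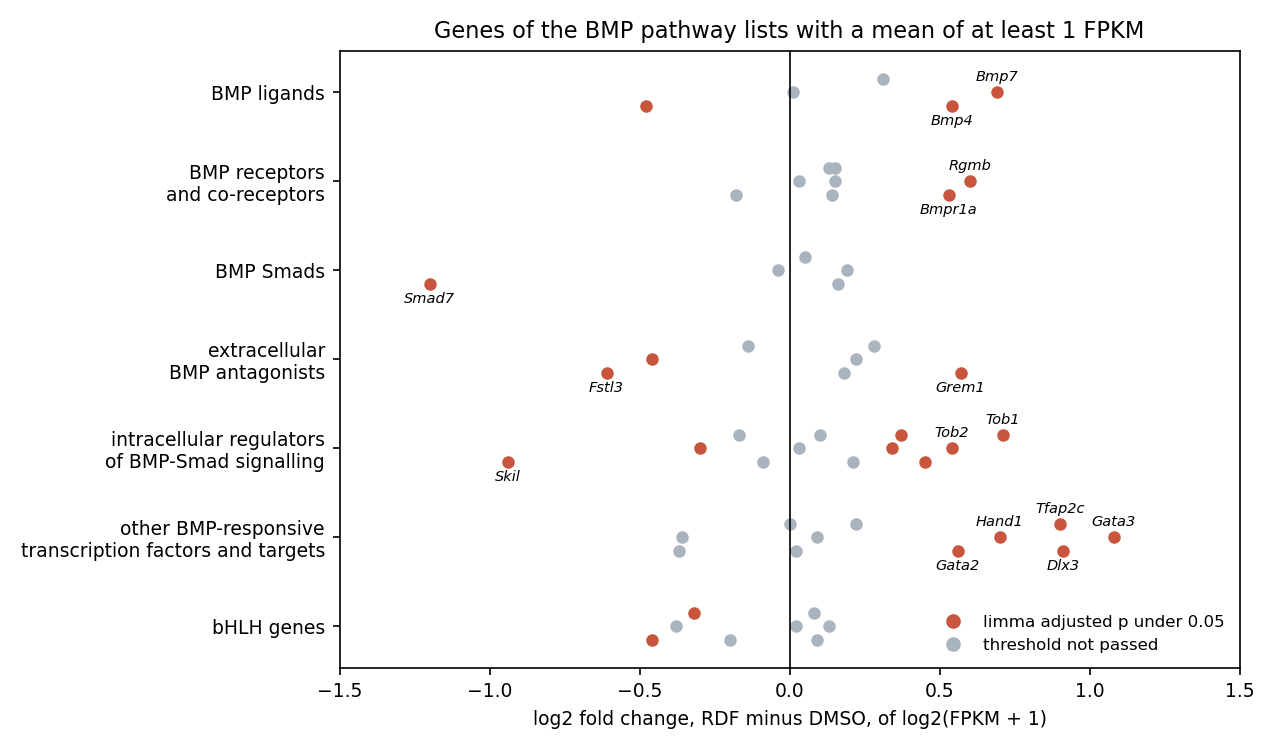
Log2 fold change (RDF minus DMSO, on log2(FPKM + 1)) of the tested genes of each BMP pathway list, with a point for each gene and names for called genes beyond 0.5 in size. Smad7 at -1.20 and Skil at -0.94 lie farthest to the left, and Gata3 at 1.08, Dlx3 at 0.91 and Tfap2c at 0.90 lie farthest to the right. Both DMSO values of Gata3 were below 1 FPKM.

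Of 20 further transcription factors and targets known to respond to BMP in other tissues or in embryonic stem cells, 11 were tested and 5 rose, where 13.3% of all genes tested did. By limma, 0 fell at an adjusted p under 0.05 and 1 was lower at an unadjusted p under 0.05. Gata3 rose from 0.729 and 0.898 FPKM to 2.73 and 2.93 FPKM (log2 fold change 1.08, adjusted p = 0.00320). Both DMSO values of Gata3 were below 1 FPKM, so it passed the filter only through the RDF samples. Tfap2c rose from 27.2 and 25.1 FPKM to 48.3 and 50.7 FPKM (log2 fold change 0.90, adjusted p = 0.00119). These and Hand1 are also markers of trophoblast. Dlx3, Hand1 and Gata2 had log2 fold changes of 0.91, 0.70 and 0.56 (adjusted p = 0.00332, 0.00821 and 0.00923), and without RDF replicate 2 the adjusted p was 0.0708 for Hand1 and 0.0639 for Gata2. Dusp9, an ERK phosphatase that BMP4 is known to induce in embryonic stem cells, had 139 and 155 FPKM in DMSO and 141 and 152 FPKM in RDF (95% interval of the log2 fold change -0.18 to 0.18). Tbx3, between 20.3 and 21.3 FPKM in all samples, had a log2 fold change of 0.02 (95% interval -0.13 to 0.17).

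Among 14 bHLH genes, which include the E proteins that Id proteins bind, 8 were tested and 2 fell, Hes6 (log2 fold change -0.46, adjusted p = 0.0176 from limma) and the neural factor Olig1 (log2 fold change -0.32, adjusted p = 0.0404). The Hes6 call was lost without RDF replicate 1 or 2 (adjusted p = 0.0736 and 0.114), and that of Olig1 was lost when any 1 sample was left out (adjusted p of 0.103 at the lowest). The E protein gene Tcf3 had 44.9 and 44.8 FPKM in DMSO and 47.3 and 48.6 FPKM in RDF (log2 fold change 0.09, adjusted p = 0.248). The summed FPKM of the Id family divided by that of the E protein genes Tcf3, Tcf4 and Tcf12 was 1.90 and 2.00 in the DMSO samples and 2.71 and 2.55 in the RDF samples. This ratio of transcripts describes no amount of protein.

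Some markers of other cell types differed between the groups. As for the pathway lists, 13.3% of all genes tested rose and 8.28% fell by the same rule. The 14 fibroblast genes summed to 39.6 to 40.7 FPKM in DMSO and 27.2 to 29.2 FPKM in RDF. Of these sums, Thy1 took 11.8 and 13.5 FPKM in DMSO and 7.75 and 7.40 FPKM in RDF. The list did not move as a whole, as the mean was higher in RDF for 8 of the 14. Of 8 tested, 2 rose, among them Dcn from 1.74 and 1.40 FPKM to 6.56 and 7.51 FPKM, and 4 fell, among them Col1a1 from 10.5 and 10.4 FPKM to 2.62 and 2.17 FPKM and Postn from 5.16 and 3.96 FPKM to 0.595 and 0.784 FPKM. The 10 trophoblast genes summed to 114.0 to 120.7 FPKM in DMSO and 149.5 to 150.8 FPKM in RDF. Of these sums, Tfap2c took 25.1 to 27.2 FPKM and 48.3 to 50.7 FPKM. Of 6 tested, 3 rose (Tfap2c, Gata3 and Hand1) and 3 did not pass the threshold, among them Krt18, the most abundant on average. Tpbpa and Prl3d1 were at 0 in all samples. The 10 neural genes summed to 59.6 to 66.4 FPKM in DMSO and 34.6 to 36.3 FPKM in RDF, of which Tubb3 took 47.6 to 54.5 FPKM and 24.1 to 26.7 FPKM. Of 5 neural genes tested, 1 fell (Tubb3), 0 rose and 4 did not pass the threshold. The mean was higher in RDF for 4 of the 10. The 10 primitive endoderm genes summed to 21.9 to 23.5 FPKM in DMSO and 27.7 to 30.6 FPKM in RDF with 1 of 4 tested risen, and the 10 mesoderm and primitive streak genes to 11.6 to 13.4 FPKM and 13.6 to 14.8 FPKM. In the last list the 1 gene of 3 tested that rose was Hand1, counted above with trophoblast. T, the defining gene of the primitive streak, went the other way, at 1.63 and 1.27 FPKM in DMSO and 0.333 and 0.401 FPKM in RDF, and was below the level for testing. Fgf8 (adjusted p = 0.0602 from limma) and Mixl1 and Tbx6 (not tested) also had both RDF values below both DMSO values. Eomes had both above, at 3.72 and 3.19 FPKM in DMSO and 3.96 and 4.06 FPKM in RDF (adjusted p = 0.257 from limma). Gsc, not tested, also had both above, at 0.931 and 0.526 FPKM in DMSO and 0.996 and 1.43 FPKM in RDF, as did Hand1. Mesp1, Evx1 and Kdr overlapped between the groups. The part of these cell types in the rise of Id3 and Bmp4 was not tested.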

How the data were processed

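RNA-seq of HG165 haESCs treated with DMSO (2 samples) or RDF (2 samples) was analysed from the deposited tables, with groups taken from the sample titles. Stranded mRNA libraries were made from total RNA. The authors mapped reads to mm9 and deposited FPKM per gene symbol from Cufflinks on the UCSC annotation; the submitters' processing notes name TopHat2 2.0.14, Bowtie2 2.1.0 and Cufflinks 2.2.1. Further scaling, strand setting and the handling of fragments that match several genes are not given in the sources used here.

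Of 23235 symbols, 5223 were at 0 in all samples. The 11733 whose mean reached 1 FPKM were tested as log2(FPKM + 1), with a pseudocount of 1, using limma 3.58.1 in R 4.3.3 (lmFit, eBayes with a mean-variance trend, no block) and Benjamini-Hochberg adjustment over these genes, at a threshold of 0.05. The fit was tested on simulated data. As nothing says that the 2 samples of a group came from separate cultures, p-values measure the spread between these samples, which may be technical. Depth was estimated from single-transcript genes of at least 1500 nucleotides in the NCBIM37 annotation (the assembly mm9), as the number of fragments at which low values fall nearest to whole fragments. Between 39.5% and 41.5% of them lay within 0.1 of one, so fragment numbers, based on the longest transcript, are approximate. Promoter sequences are RefSeq's on GRCm38.p6 and were not placed on mm9.

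The genes and lists were chosen with earlier results of these data known, and support nothing as independent evidence. The genes named are the 10 members, from each pathway list at most 5 called genes with the largest change and the 2 most abundant genes not called, the 2 most abundant genes of each marker list with called markers beyond 2-fold, and the 3 genes nearest in profile to the member that changed most. Not every gene this rule selects is described. Utf1, Zfp42, Klf4, Sox2, T, Fgf8, Mixl1, Tbx6, Gsc, Mesp1, Evx1 and Kdr were named outside the rule, after their values were seen. Map2 is listed under its older symbol Mtap2.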

Additional observations from a re-analysis of the deposited data

How the results depend on the processing

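Id3 passed the threshold under all 12 alternatives, Bmp4 under 11 and Id2 under 5. Leaving out each sample in turn left between 1 and 3 of the 10 genes called, and between 253 and 1121 genes called higher and 195 and 731 called lower over the whole table. Without the filter on low values, limma called 942 genes higher and 606 lower, against 1561 and 972. Of genes changed more than 2-fold, 74 were higher and 91 lower, against 155 and 166 with a pseudocount of 0.1, and 48 and 58 where the mean had to reach 5 FPKM. The cause of these differences was not tested. Signs changed only for values that did not pass the threshold. Id1 became 0.02 without DMSO replicate 2 and 0.00074 without RDF replicate 2, and Bambi -0.05 without DMSO replicate 1. Gdf3 became -0.03 with median-ratio scaling, -0.01 with quantile normalization and -0.05 without DMSO replicate 1. Smad4 became -0.0023 without RDF replicate 1. Dusp9 became 0.04 with quantile normalization, 0.08 without DMSO replicate 2 and 0.05 without RDF replicate 1. Tbx3 became -0.01 with median-ratio scaling and -0.0022 without DMSO replicate 1. Lama1 became -0.01 with quantile normalization and -0.07 without DMSO replicate 2. Nanog became 0.07 without RDF replicate 2. The opposite ends of the ranges with 1 sample left out were -0.13 for Id1, 0.20 for Bambi, 0.06 for Gdf3, 0.09 for Smad4, -0.08 for Dusp9, 0.05 for Tbx3, -0.18 for Nanog and 0.19 for Lama1. Of the 20 other pathway genes named as called, 7 were lost without the filter and 0 with the other scalings or pseudocounts. Some were also lost when any 1 sample was left out, more of them without an RDF sample than without a DMSO sample. Without RDF replicate 2, most of them were lost.

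The labels number the samples, but nothing says that a number marks a shared culture or day. Between the groups, deviations from the group mean at equal numbers had a Pearson r of 0.134 across 11733 genes, which are not independent. With the replicate number as a block, limma called 1651 genes higher and 1066 lower, and the calls on the 10 genes did not change (Id3 adjusted p = 0.000514, Bmp4 0.0161, Id2 0.0330). Hes1 passed the threshold with the block (adjusted p = 0.0475) and not without it (0.354), as did Esrrb (0.0406 and 0.0633). Smad9, Msx1 and Msx2 rest on few fragments, which limits what could be detected.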
